A study of Homo sapiens with 16 samples.

Results

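The cells compared were cultures of SK-OV-3, a long-established line from a human ovarian adenocarcinoma, that carried a scrambled control hairpin (shScramble) and were either given cisplatin at 20 µM for 24 h or left untreated. The members are 4 of the 16 RNA-seq libraries of the series, 2 treated with cisplatin and 2 untreated, picked by their labels and not by a measured value. The other 12 libraries came from cells of the same line with 1 of 3 hairpins against the arginine methyltransferase PRMT1, with and without the drug, and served here to estimate the spread and for a closing comparison. Every group carries a hairpin construct, so no library stands for the parental line, and no vehicle is named for the untreated cells. The labels call the 2 libraries of a group biological replicates and do not say how the cultures were kept apart, so p-values measure the spread between these samples, which may be technical.

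Cisplatin binds neighbouring guanines and leaves crosslinks within and between DNA strands. These lesions stall replication forks and elongating RNA polymerase II. Crosslinks within a strand are mainly removed by nucleotide excision repair, whereas crosslinks between strands are handled by the Fanconi anemia proteins together with homologous recombination. Damaged DNA is also known to signal to the transcription factor NF-kB, whose target genes include cytokines and its own inhibitors.

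Expression was read as RPKM, that is reads divided by the length of the gene model in kilobases and scaled to the depth of the library. Reads recovered from the RPKM steps amounted to 14675465 and 15120615 in the cisplatin libraries, and to 14677760 and 14080885 in the untreated ones. For a gene model of 2 kb, 3 reads, taken as the detection floor, are worth 0.0992 to 0.107 RPKM, which covers counting error only. Of 14 identity genes listed for this carcinoma line, 12 reached 1 RPKM in 2 libraries, with a median of 22.9 RPKM in each group. Of these 12, 2 were called higher under cisplatin (16.7%, beside 17.8% of all genes) and 3 lower (25%, beside 16.2%). KRT18 measured 23.1 and 21.9 RPKM in cisplatin cells and 20.1 and 21.3 RPKM in untreated cells. ERBB2, the receptor this line is known to overexpress, measured 45.1 and 48.5 against 60.1 and 66.3 RPKM. Of 23 markers of endothelium, leukocytes, fibroblasts and muscle, 2 reached 1 RPKM in 2 libraries, LUM and POSTN. The summed level of all 23 was 12.5 and 12.9 RPKM in cisplatin cells and 19.1 and 17.4 RPKM in untreated cells, and the T and B cell markers CD3D, CD3E and MS4A1 had no read in any of the 4 libraries. PRMT1, not targeted in these cells, measured 17.8 and 20.5 RPKM under cisplatin against 19.4 and 23.5 RPKM untreated, and was not called (log2 difference -0.15, SE 0.26, limma adjusted p = 0.721). In bulk RNA, fewer cells that express a gene and less RNA per cell cannot be told apart.

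After 24 h of cisplatin a large part of the transcriptome had moved, in both directions. Of 15695 genes with at least 1 RPKM in 2 of the 4 libraries, out of 57820 in the table, limma called 5334 at an adjusted p under 0.05, which is 34.0%. The calls were divided almost evenly, with 2789 genes higher (17.8%) and 2545 lower (16.2%), and 648 of the increases and 756 of the decreases were at least 2-fold on the log2(RPKM + 1) scale. With the replicate number added as a term (the replicate block), 4072 of the 15695 genes were called higher and 3725 lower. These are the background for list counts given with the replicate block. In the fit without that term, used below, the shares of 17.8% and 16.2% are the background for the counts of every list. The gene lists were chosen with earlier results of these data known. A list's share beside the background is therefore a description and no independent test. Without cisplatin replicate 2 the genes called lower numbered 1665. The median log2 difference over all genes was -0.01. Every log2 difference below is cisplatin minus untreated on that scale, where the added 1 shrinks the change of weakly expressed genes. Genes that reached 1 RPKM in only 1 of the groups had to differ to be tested: 449 reached it only under cisplatin, of which 327 were called higher, and 783 only in untreated cells, of which 604 were called lower.

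The largest increases were in genes of inflammatory signalling. TNFAIP3 (GRCh37 chromosome 6, 138188351 to 138204449), which encodes a ubiquitin-editing enzyme that shuts off NF-kB signalling, measured 64.1 and 66.8 RPKM under cisplatin and 2.09 and 1.41 RPKM untreated. The chemokine gene CCL20 (chromosome 2, 228678558 to 228682272) measured 25.2 and 22.2 RPKM under cisplatin and 0.204 and 0.16 RPKM untreated. TNFRSF9 (chromosome 1, 7979907 to 8000926), the costimulatory receptor 4-1BB, measured 21.7 and 21.4 RPKM under cisplatin and 0.239 and 0.124 RPKM untreated. In each of these genes both cisplatin libraries lay far above both untreated libraries, and the differences were 4.61 for TNFAIP3 (SE 0.13, adjusted p = 1.68e-08), 4.38 for CCL20 (SE 0.20, adjusted p = 2.16e-07) and 4.26 for TNFRSF9 (SE 0.10, adjusted p = 1.08e-08). CCL20 had 7 reads and TNFRSF9 12 reads over both untreated libraries, so these increases start close to the detection floor.

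**Figure D1:**
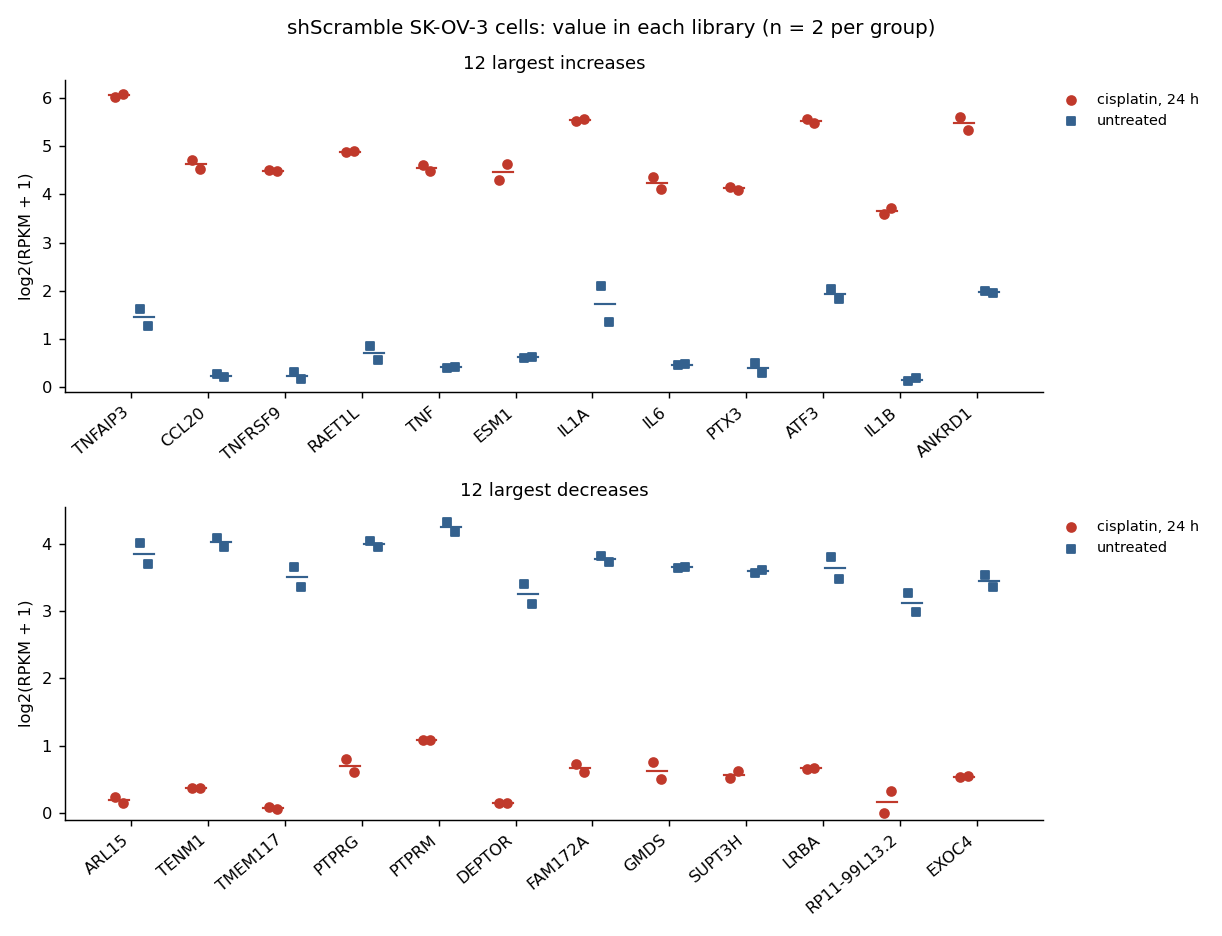
Values of the 12 largest increases (top) and 12 largest decreases (bottom) in each library, as log2(RPKM + 1), with cisplatin libraries as red circles, untreated libraries as blue squares and a bar at each group mean (n = 2 per group). The genes were picked among those whose groups do not overlap, and run from TNFAIP3 at 64.1 and 66.8 against 2.09 and 1.41 RPKM to ARL15 at 0.18 and 0.105 against 15.1 and 12 RPKM.

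The other 9 of the 12 largest increases were RAET1L, TNF, ESM1, IL1A, IL6, PTX3, ATF3, IL1B and ANKRD1, with log2 differences between 4.18 and 3.50, as the plot of the leading genes shows library by library. RAET1L (chromosome 6, 150339470 to 150346668), a ligand of the killer cell receptor NKG2D, measured 28.4 and 29 RPKM under cisplatin and 0.81 and 0.475 RPKM untreated. It lies among close relatives, and how the authors' counting divided reads between them is not given in the sources used here. ESM1, a proteoglycan secreted by endothelial and tumour cells, measured 18.8 and 24 RPKM under cisplatin and 0.531 and 0.553 RPKM untreated. PTX3, a soluble pattern recognition protein, measured 16.9 and 16.2 RPKM under cisplatin and 0.421 and 0.22 RPKM untreated. ANKRD1, a nuclear ankyrin-repeat protein and YAP target, measured 47.6 and 39.7 RPKM under cisplatin and 3 and 2.87 RPKM untreated. Both cisplatin libraries lay above both untreated ones in each, which the choice of these genes required.

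Among NF-kB subunits, inhibitors and feedback genes, 22 of 34 tested genes rose (64.7%, beside 17.8% of all genes) and the other 12 were not called. The list's median log2 difference was 0.72, against -0.01 over all genes. The subunits did not move alike. RELB, of the alternative pathway, measured 14.7 and 19.5 RPKM under cisplatin and 1.91 and 3.21 RPKM untreated (2.36), and NFKB2, its partner, 32.1 and 38.3 against 5.63 and 7.39 RPKM (2.27). NFKB1, of the classical pathway, rose less (29.9 and 27.7 against 17.4 and 14.8 RPKM, 0.81), and RELA, at 26.3 and 29.5 against 19.1 and 24.4 RPKM, was not called (0.35, adjusted p = 0.259, or 0.00445 with the replicate block, a fit that adds the replicate number as a term). The inhibitors NFKBIA, NFKBIB and NFKBIE rose by 0.94, 1.05 and 1.94. Of the genes that feed back on receptor signalling, BIRC3, a ubiquitin ligase, measured 23.4 and 25 RPKM under cisplatin and 2.27 and 1.66 RPKM untreated (3.10, SE 0.15), and the adaptor gene TRAF1 10.7 and 12 against 0.264 and 0.352 RPKM (3.24, SE 0.20). Of the 34 genes, 3 reached 1 RPKM only under cisplatin.

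Cytokine genes rose in most members tested: 65% of interleukin and haematopoietic cytokine genes and 75% of chemokine genes, beside 17.8% of all genes. Of 20 tested interleukin and haematopoietic cytokine genes, 13 rose and 2 fell (1 without untreated replicate 1, cisplatin replicate 1 or cisplatin replicate 2), and of 8 chemokine genes 6 rose. IL6, a pleiotropic cytokine of the acute phase, measured 19.7 and 16.2 RPKM under cisplatin and 0.377 and 0.393 RPKM untreated (3.77, SE 0.13). The interleukin 1 genes followed, IL1A at 44.9 and 46.7 against 3.3 and 1.57 RPKM (3.81, SE 0.25) and IL1B at 11.1 and 12.2 against 0.088 and 0.138 RPKM (3.51, SE 0.19). In all 3 genes the untreated libraries were low and the cisplatin libraries did not overlap them. IL11 (3.06), the secreted protein gene IL32 (2.64) and LIF (1.25) also rose, while the receptor gene IL1R1 fell by 1.07. CSF2, which encodes the growth factor GM-CSF, measured 3.31 and 3.21 RPKM under cisplatin and had no read in the untreated libraries. The neutrophil chemokine IL8 (CXCL8) measured 93.2 and 89.5 RPKM under cisplatin and 11.8 and 7.21 RPKM untreated (3.17, SE 0.20). CXCL2 rose by 2.63, CXCL3 by 2.03, CCL26 by 1.80 and CXCL1 by 0.57, whereas CCL28 (-0.22) and CXCL16 (0.01) were not called. Of the cytokine and chemokine genes that rose, 5 and 2 reached 1 RPKM only under cisplatin.

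Promoter sequence is shown for 4 of these genes because the largest increases were in known NF-kB targets. Each window runs from 250 bases before to 50 bases after the RefSeq transcript start on GRCh38.p14, in the direction of transcription, and capitals mark matches on either strand to a form of the NF-kB binding motif: GGG, any 2 bases, TT, any 1 base, CC. The windows are TNFAIP3 at chr6:137867009-137867308 (plus strand), CCL20 at chr2:227813592-227813891 (plus), TNFRSF9 at chr1:7940790-7941089 (minus) and IL6 at chr7:22726950-22727249 (plus).
TNFAIP3: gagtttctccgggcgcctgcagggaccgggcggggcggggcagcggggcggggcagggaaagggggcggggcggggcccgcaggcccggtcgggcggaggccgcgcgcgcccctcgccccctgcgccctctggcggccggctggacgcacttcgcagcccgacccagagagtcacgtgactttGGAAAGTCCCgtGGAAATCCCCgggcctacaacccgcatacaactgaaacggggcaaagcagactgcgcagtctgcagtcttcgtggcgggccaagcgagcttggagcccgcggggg
CCL20: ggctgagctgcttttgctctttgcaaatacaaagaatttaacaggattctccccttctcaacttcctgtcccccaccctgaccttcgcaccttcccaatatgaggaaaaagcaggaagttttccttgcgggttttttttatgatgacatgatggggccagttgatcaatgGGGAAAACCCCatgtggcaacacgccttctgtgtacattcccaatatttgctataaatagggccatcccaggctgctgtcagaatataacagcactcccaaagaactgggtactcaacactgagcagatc
TNFRSF9: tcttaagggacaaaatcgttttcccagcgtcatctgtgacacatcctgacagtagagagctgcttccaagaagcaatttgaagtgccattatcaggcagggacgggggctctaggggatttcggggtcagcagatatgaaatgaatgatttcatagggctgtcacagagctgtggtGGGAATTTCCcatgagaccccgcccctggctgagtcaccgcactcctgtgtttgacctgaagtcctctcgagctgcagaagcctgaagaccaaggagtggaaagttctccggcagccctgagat
IL6: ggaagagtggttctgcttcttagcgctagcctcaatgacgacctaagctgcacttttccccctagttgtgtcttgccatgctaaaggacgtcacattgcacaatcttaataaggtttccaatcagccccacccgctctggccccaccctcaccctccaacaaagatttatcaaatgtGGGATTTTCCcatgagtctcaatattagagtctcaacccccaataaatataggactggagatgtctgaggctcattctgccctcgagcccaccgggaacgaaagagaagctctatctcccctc
TNFAIP3 holds 2 separate matches and CCL20 a pair that overlap, while TNFRSF9 and IL6 hold 1 each. All 4 windows shown hold a match, so they do not stand for the largest increases as a set. Such a match stood in the windows of 5 of the 12 genes with the largest increases, of 13 of 29 NF-kB list genes with a window, of 4 of 7 chemokine genes and of 2 of 14 interleukin and cytokine genes. Over 10055 tested genes with a window the share was 8.64%, and over all 35116 windows 5.68%. The AP-1 motif TGANTCA stood in 4 of the 12 windows and in 6.92% of those of tested genes. The TATA box motif TATAAA stood in 5 of the 12 windows and in 8.46% of those of tested genes. Of 9 windows of the largest decreases, the NF-kB motif stood in 0, the AP-1 motif in 1 and TATAAA in 3. A match is a description of the letters and shows no binding.

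Some other genes read by immune cells rose too. TNF measured 23.4 and 21.4 RPKM under cisplatin and 0.325 and 0.339 RPKM untreated (4.13, SE 0.20). In its wider superfamily 7 of 17 genes rose and 4 fell, or 2 without cisplatin replicate 2. Increases were 41.2% and decreases 23.5% of the superfamily, beside 17.8% and 16.2% of all genes. Of its increases 3 reached 1 RPKM only under cisplatin, and of its decreases 1 only in untreated cells. The death receptor gene TNFRSF10B rose by 0.49, and the decoy receptor gene TNFRSF11B fell by 1.51, at 4.8 and 5.71 RPKM under cisplatin and 17.1 and 16.4 RPKM untreated. Of 8 NKG2D ligand genes 7 rose (87.5%), 2 of which reached 1 RPKM only under cisplatin. ULBP1, at 14.8 and 13.2 against 2.36 and 1.63 RPKM (2.33), and ULBP2, at 17.6 and 20.9 against 3.54 and 3.11 RPKM (2.23), were among those that rose, and RAET1E was not called (-0.01). The ligand genes of the inhibitory receptor PD-1 rose from low levels: PDCD1LG2 measured 6.96 and 7.36 RPKM under cisplatin and 0.254 and 0.352 RPKM untreated (2.65), and CD274 3.63 and 4.07 against 0.365 and 0.207 RPKM (1.92). HLA-E was not called (0.07). In the list of HLA class I and antigen processing genes 3 of 18 rose, and that 16.7% was near the 17.8% of all genes. Of these increases 2 reached 1 RPKM only under cisplatin. Of 25 interferon-stimulated genes 2 rose (8%) and 3 fell (12%), both below the shares over all genes. The decreases included IFIT1, which measured 2.63 and 2.86 RPKM under cisplatin and 16.5 and 11.6 RPKM untreated (-1.99). With the replicate block 6 of these 25 rose and 4 fell, beside 4072 and 3725 of all 15695 genes. Both increases of the fit without the block lost their call without untreated replicate 2, cisplatin replicate 1 or cisplatin replicate 2.

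Immediate early genes and their brakes were also higher. Of 26 tested EGR, KLF and other immediate early genes 18 rose (69.2%, beside 17.8% of all genes), and of 13 genes of the AP-1 family 7 (53.85%). Of 17 genes for MAP kinase phosphatases, Sprouty and Spred proteins 12 rose (70.6%) and 1 fell. Among the increases, 4 immediate early genes and 2 AP-1 genes reached 1 RPKM only under cisplatin. KLF4, a transcription factor of growth arrest and differentiation, measured 22.4 and 26.2 RPKM under cisplatin and 3.87 and 3.27 RPKM untreated (2.47, SE 0.13). The nuclear receptor gene NR4A3 measured 8.18 and 7.78 RPKM under cisplatin and 0.367 and 0.292 RPKM untreated (2.76, SE 0.12). Cisplatin and untreated libraries were apart in both. Within AP-1 the response was split: MAFF rose by 2.09, FOSB by 1.99 and JUN by 1.08, whereas FOS, at 23 and 26.2 against 26.1 and 33.1 RPKM, was not called. Among the immediate early genes outside AP-1, EGR1, a zinc finger factor, was not called either, at 63.8 and 66.8 against 64 and 74.4 RPKM. DUSP5, which dephosphorylates ERK, measured 53.5 and 52 RPKM under cisplatin and 14.5 and 14.1 RPKM untreated (1.81, SE 0.07), and DUSP4 rose by 1.70 and DUSP1 by 1.21. SPRY1, an inhibitor of receptor tyrosine kinase signalling, went the other way, at 4.84 and 4.88 RPKM under cisplatin and 18.3 and 16.1 RPKM untreated (-1.63). HBEGF, a ligand of the EGF receptor, measured 42.3 and 42.6 RPKM under cisplatin and 2.94 and 3.34 RPKM untreated (3.39), and ERRFI1, a feedback inhibitor of that receptor, rose by 1.42. In their list of EGF receptor ligands and ERBB receptors 5 of 10 tested genes rose (50%, beside 17.8% of all genes). Another 3 fell (30%, beside 16.2%), or 5 with the replicate block. Among the decreases was the receptor gene ERBB4 (-1.03), which reached 1 RPKM only in untreated cells.

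Many genes of the integrated stress response, which the transcription factor ATF4 drives, rose, and few of the endoplasmic reticulum stress response did. Of 28 genes of the integrated stress response 17 rose (60.7%, beside 17.8% of all genes) and 2 fell, with a median log2 difference of 0.51. ATF3, a stress-induced transcription factor, measured 46.2 and 43.7 RPKM under cisplatin and 3.1 and 2.57 RPKM untreated (3.59, SE 0.10). DDIT3, which encodes CHOP, measured 64 and 59.8 RPKM under cisplatin and 25.3 and 25.2 RPKM untreated (1.26, SE 0.09), and ATF4 itself, at 39.1 and 41.6 against 34.3 and 40.7 RPKM, was not called (0.11). Of 22 genes of the endoplasmic reticulum unfolded protein response 4 rose (18.2%) and 7 fell (31.8%, beside 16.2% of all genes), with a median of -0.16. The disulfide isomerase gene PDIA4 fell by 0.48 and the calreticulin gene CALR by 0.37, the sensor gene ERN1 rose by 1.23, and the chaperone gene HSPA5, at 48.7 and 48.4 against 53.4 and 57.2 RPKM, was not called (-0.18, adjusted p = 0.0558, or 0.0169 with the replicate block). There were 4 decreases without untreated replicate 1 or cisplatin replicate 2.

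CDKN1A, which encodes the CDK inhibitor p21, measured 42.9 and 46.5 RPKM under cisplatin and 7.58 and 7.3 RPKM untreated (2.43, SE 0.14, adjusted p = 6.02e-07). It stood with 14 of 30 p53 target genes that rose (46.7%, beside 17.8% of all genes) and 4 that fell (13.3%, beside 16.2%). AEN, a nuclease of apoptosis, rose by 2.14, BTG2, an antiproliferative factor, by 1.86 and GADD45A by 1.33, whereas MDM2, at 16.5 and 14.9 against 14.8 and 14.4 RPKM, was not called (0.09). Among the 4 decreases were CCNG1 and ZMAT3, by 0.60 and 0.51, and the number of decreases was 1 without untreated replicate 1 and 2 without untreated replicate 2, and all 4 lost their call without cisplatin replicate 2. In the BCL2 family 5 of 19 genes rose (26.3%) and 3 fell (15.8%), with a median of 0.16. The death-promoting genes BIK and PMAIP1 rose by 1.64 and 0.57, as did BCL2L13 by 0.45 and the survival gene MCL1 by 0.19. The survival gene BCL2A1 measured 1.19 and 1.58 RPKM under cisplatin and had no read in the untreated libraries. BMF, another death-promoting gene, fell by 0.70, BNIP3L by 0.36 and BCL2 by 0.34, and BCL2L1 was not called (0.14). The number of decreases was 1 without untreated replicate 1, cisplatin replicate 1 or cisplatin replicate 2.

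Many genes for entry into S phase rose, and few genes of mitosis did. Of 35 E2F, MCM and origin licensing genes 22 rose (62.9%, beside 17.8% of all genes), 1 fell and 12 were not called, with a median log2 difference of 0.34. Of 34 genes for replicative polymerases, primase, clamp and nucleotide supply 18 rose (52.9%) and 16 were not called, with a median of 0.33. E2F7, a repressor in the E2F family, measured 45.2 and 44.8 RPKM under cisplatin and 12 and 10.4 RPKM untreated (1.92, SE 0.11). E2F2, an activator, measured 16.6 and 15.9 RPKM under cisplatin and 5.02 and 4.35 RPKM untreated (1.60, SE 0.12). In both genes the libraries of the groups were far apart. The cyclin E genes CCNE1 and CCNE2 rose by 1.50 and 1.40, the phosphatase gene CDC25A by 1.66, the licensing factor CDC6 by 1.03, DTL by 1.43 and MCM10 by 1.21. The helicase gene MCM2, at 41.3 and 50.9 against 28.6 and 32.4 RPKM, was not called (0.57, adjusted p = 0.0784, or 0.000311 with the replicate block), nor was the clamp gene PCNA at 73.4 and 75.4 against 65.9 and 72.6 RPKM. The ribonucleotide reductase gene RRM2 rose by 0.67 and the histone chaperone gene ASF1B by 0.80. Of 18 replication-dependent histone genes 8 rose, with 5 called without untreated replicate 1 and 4 without cisplatin replicate 2. These transcripts end mostly without a poly(A) tail and form a family of near-identical copies, so their values are uncertain. Among the histone genes that rose, 2 reached 1 RPKM only under cisplatin.

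The 38 tested genes of G2 phase and mitosis held 4 increases (10.5%, beside 17.8% of all genes) and 6 decreases (15.8%, beside 16.2%). Their median of -0.03 was close to that of all genes. KIF20A, a kinesin of cytokinesis, measured 28.7 and 27.1 RPKM under cisplatin and 53.1 and 53.7 RPKM untreated (-0.91), and the mitotic kinase gene PLK1 12.9 and 15.1 against 25.4 and 29.6 RPKM (-0.93). The topoisomerase gene TOP2A, at 77.6 and 78.1 against 81.3 and 77.2 RPKM, and the proliferation marker MKI67, at 49 and 47.3 against 53.5 and 48.1 RPKM, were not called. The counts rested on single libraries: at most 1 gene was called higher without any 1 of the 4 libraries, and 2 were called lower without untreated replicate 1 or cisplatin replicate 2.

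A pair of promoter windows illustrates the S phase genes. Capitals mark matches to TTTNGCGC on either strand, a form of the E2F binding motif, in E2F2 at chr1:23531184-23531483 (minus strand) and CDC6 at chr17:40287629-40287928 (plus), both RefSeq on GRCh38.p14.
E2F2: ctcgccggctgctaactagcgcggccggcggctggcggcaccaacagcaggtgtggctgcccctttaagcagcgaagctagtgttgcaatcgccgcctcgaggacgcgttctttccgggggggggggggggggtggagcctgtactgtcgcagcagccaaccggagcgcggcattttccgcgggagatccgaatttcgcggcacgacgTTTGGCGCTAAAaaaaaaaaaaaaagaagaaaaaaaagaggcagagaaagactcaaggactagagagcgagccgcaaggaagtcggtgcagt
CDC6: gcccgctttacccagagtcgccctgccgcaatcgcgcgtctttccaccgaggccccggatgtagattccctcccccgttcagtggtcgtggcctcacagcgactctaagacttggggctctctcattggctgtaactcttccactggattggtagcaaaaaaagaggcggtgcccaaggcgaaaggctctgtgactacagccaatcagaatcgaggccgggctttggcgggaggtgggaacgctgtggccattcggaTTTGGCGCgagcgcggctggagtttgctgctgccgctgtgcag
The run in E2F2 holds 2 overlapping matches on opposite strands, and CDC6 holds 1. A match stood in 14 of 30 windows of the E2F, MCM and licensing list, in 3.68% of windows of tested genes and in 1.79% of all windows, and in none of the 12 windows of the largest increases.

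DNA repair genes rose by pathway rather than throughout. Over 6 lists with 125 tested genes 51 rose, 5 fell and 69 were not called, with a median log2 difference of 0.24. Homologous recombination held the largest share, with 16 of 24 genes higher (66.7%, beside 17.8% of all genes) and a median of 0.67. EXO1, a nuclease that resects broken ends, measured 38.7 and 36.5 RPKM under cisplatin and 12.1 and 10.4 RPKM untreated (1.66, SE 0.11). BRCA2, which loads the recombinase onto resected ends, measured 15.2 and 15.1 RPKM under cisplatin and 6.25 and 4.74 RPKM untreated (1.32, SE 0.21). Cisplatin libraries were above untreated ones in both genes. RAD54L, a motor protein of strand exchange, rose by 1.04 and BRCA1 by 0.90. Of 25 Fanconi anemia genes 14 rose (56%), with PALB2, the bridge between BRCA1 and BRCA2, at 19.5 and 21 against 10.8 and 8.82 RPKM (0.98), and FANCG, FANCE and FANCA of the core complex at 0.74, 0.73 and 0.70. The helicase gene BRIP1 rose by 1.05, while FANCC, another core member, fell by 0.50 and FANCL was not called (0.06). Without untreated replicate 2 the list had 9 increases.

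In the replication checkpoint list 12 of 23 genes rose (52.2%, beside 17.8% of all genes). CLSPN, the adaptor through which ATR activates CHEK1, measured 37.6 and 43 RPKM under cisplatin and 15.6 and 13.9 RPKM untreated (1.39, SE 0.11), ATRIP, the partner of ATR, rose by 0.85 and CHEK1 by 0.54. The kinase genes ATR, at 12.3 and 14.1 against 11.1 and 8.76 RPKM, and ATM, at 6.54 and 6.66 against 8.41 and 7.39 RPKM, were not called, though the replicate block called ATR higher (adjusted p = 0.0212). The number of increases in the list was 3 without untreated replicate 2 and 5 without cisplatin replicate 1.

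Nucleotide excision repair, end joining and translesion synthesis were close to the background in the fit without the replicate block. Increases made up 18.2%, 20% and 12.5% of their genes, beside 17.8% of all genes. Of 22 nucleotide excision repair genes 4 rose, with a median of 0.06: the coupling factor ERCC6 by 0.47, GTF2H1 by 0.42, the damage sensor XPC by 0.36 and the helicase ERCC3 by 0.23. All 4 lost their call without untreated replicate 2, and 1 was called higher without cisplatin replicate 1 or cisplatin replicate 2. XPA, at 20.7 and 18.5 against 17.6 and 16.7 RPKM, was not called, though the replicate block called it higher (adjusted p = 0.0447). ERCC1 and ERCC4 were counted in the Fanconi anemia list and not among the 22. ERCC1, at 11.4 and 12.1 against 11.1 and 13.3 RPKM, was not called, and ERCC4 rose by 0.46. Of 15 end joining genes 3 rose, among them the polymerase gene POLQ at 16.4 and 16.7 against 8.27 and 7.36 RPKM (1.00), and the Ku subunit gene XRCC5 was not called (-0.07). The replicate block called 5 of these 15 higher and 2 lower, beside 4072 and 3725 of all 15695 genes. Of 16 translesion synthesis genes 2 rose, the ubiquitin ligase gene RAD18 by 0.88 and the protease gene SPRTN by 0.64, and 2 fell. With the replicate block 8 of the 16 rose.

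**Figure D2:**
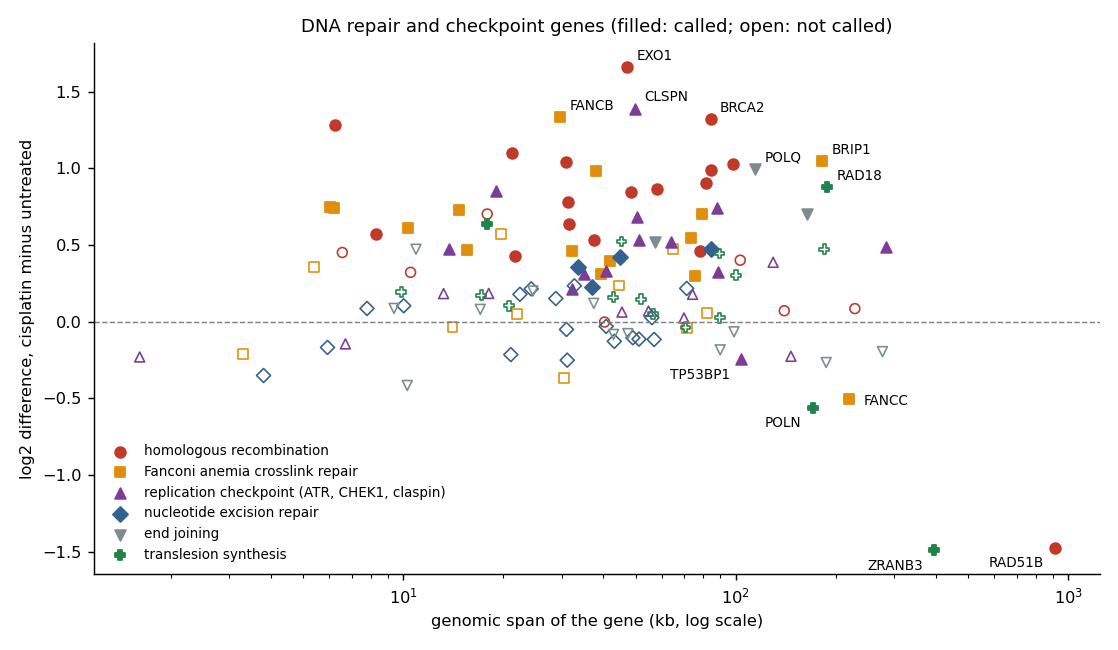
Log2 difference (cisplatin minus untreated, 2 against 2 libraries) of the genes of 6 DNA repair and checkpoint lists against the genomic span of each gene on a log scale, with filled symbols for called genes and open symbols for genes not called. EXO1 stands highest at 1.66, and the 2 members that span over 300 kb, ZRANB3 and RAD51B, stand lowest at -1.49 and -1.47.

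The 5 repair genes that fell were long ones, as the plot of difference against genomic span shows. RAD51B, a recombination gene that runs over 910 kb (chromosome 14, 68286496 to 69196935), measured 0.273 and 0.265 RPKM under cisplatin and 2.62 and 2.43 RPKM untreated. ZRANB3, a fork remodeller spanning 394 kb, measured 1.53 and 1.08 RPKM under cisplatin and 5.71 and 5.18 RPKM untreated. The other decreases were in POLN (-0.56), FANCC (-0.50) and TP53BP1 (-0.24), which span between 100 and 300 kb. Of the 41 repair genes under 30 kb 13 rose, of the 65 between 30 and 100 kb 33 rose, and the others of these spans were not called. Of the 17 between 100 and 300 kb 5 rose and 3 fell, and both of the genes above 300 kb fell.

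The share of genes that fell was larger among long genes across the whole transcriptome. Span is the distance between a gene's first and last base in the authors' table, introns included, and is distinct from the length of the gene model by which RPKM is divided. Which transcripts of a gene were expressed was not read, and these may cover only part of its span. Of 128 tested genes over 500 kb, 95 fell (74.2%, beside 16.2% of all genes) and 12 rose, with a median log2 difference of -1.25. Of 283 genes between 300 and 500 kb, 204 fell and 15 rose, with a median of -0.98, and of 1992 between 100 and 300 kb, 709 fell and 232 rose, with a median of -0.17. In the 3 classes under 100 kb the medians were -0.02, 0.07 and 0.03, and 10.6%, 9.87% and 14.3% of genes fell, which is 561, 370 and 606 of the 2545 decreases. Among genes with a mean over 20 RPKM, the 416 between 100 and 300 kb had a median of -0.03, with 84 lower and 48 higher. The median gene over 500 kb stood at 20.2% of its untreated level and the median gene between 300 and 500 kb at 43.0%. Taken one replicate number at a time, the median over 500 kb was -1.28 in both pairs of libraries. Without any 1 of the 4 libraries 89 to 95 of the 128 genes fell. The counts of shorter genes moved more. Decreases in the 3 classes under 100 kb numbered 325, 204 and 368 without cisplatin replicate 2, and 861, 644 and 995 with the replicate block. Without untreated replicate 2 they numbered 325 under 10 kb and 226 between 10 and 30 kb, and without untreated replicate 1 they numbered 402 between 30 and 100 kb. Increases between 100 and 300 kb numbered 139 without untreated replicate 2 and 366 with the replicate block, and those between 300 and 500 kb numbered 9 without cisplatin replicate 1.

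**Figure D3:**
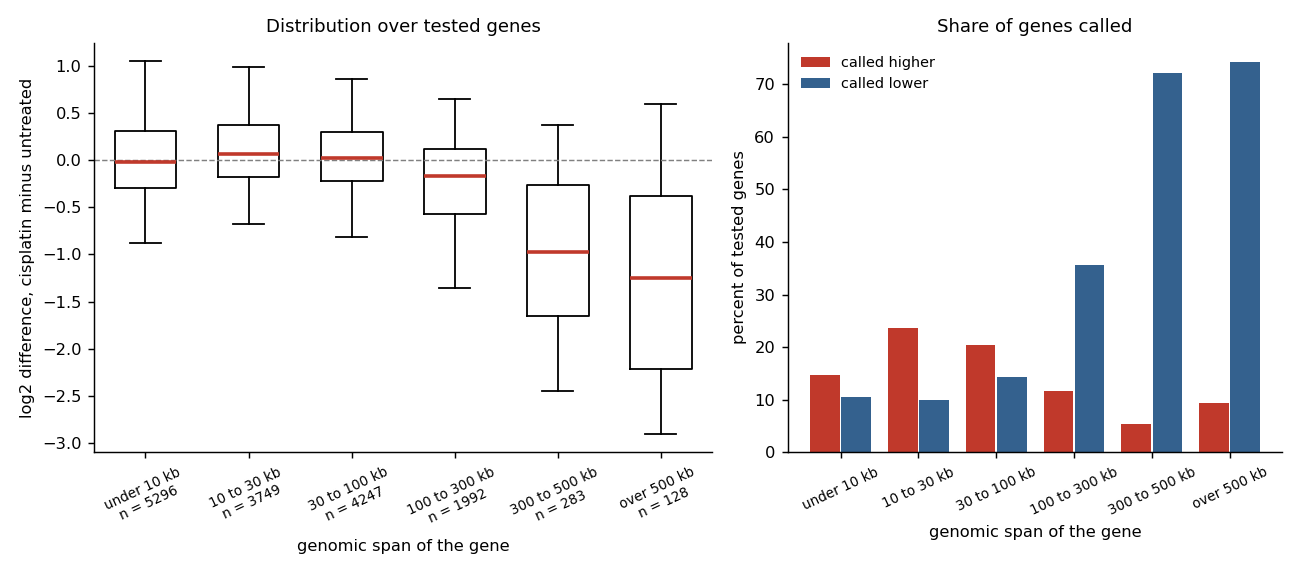
Left, log2 difference (cisplatin minus untreated) of all tested genes by class of genomic span, with the median as a red line, quartiles as boxes and the 5th and 95th percentiles as whiskers. Right, percent of genes of each class called higher and called lower, where the share called lower goes from 10.6% under 10 kb to 74.2% over 500 kb.

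Of the 12 largest decreases, 10 were in genes over 300 kb. ARL15 (chromosome 5, 53179775 to 53606412, 427 kb), a small GTPase gene, measured 0.18 and 0.105 RPKM under cisplatin and 15.1 and 12 RPKM untreated, or 1.05% of the untreated mean (-3.66, SE 0.16). TMEM117 (chromosome 12, 44229770 to 44783545, 554 kb), a membrane protein gene, measured 0.0594 and 0.0384 RPKM under cisplatin and 11.6 and 9.21 RPKM untreated (-3.43, SE 0.13). LTBP1, outside the 12, encodes a protein that stores latent TGF-beta in the matrix, spans 452 kb and measured 4.14 and 3.47 RPKM under cisplatin and 36.6 and 32.5 RPKM untreated (-2.89, SE 0.12). Untreated libraries were high and cisplatin libraries near the floor in ARL15 and TMEM117, and well apart in LTBP1. TENM1 (-3.65), PTPRG (-3.30), PTPRM (-3.17), FAM172A (-3.11), GMDS (-3.03), SUPT3H (-3.03), LRBA (-2.98) and EXOC4 (-2.90) spanned 494 to 840 kb and were as separate. DEPTOR, an inhibitor of mTOR, is shorter at 177 kb and measured 0.104 and 0.101 RPKM under cisplatin and 9.59 and 7.64 RPKM untreated (-3.12, SE 0.15). The 12th gene, the non-coding RP11-99L13.2, spans about 1 kb with a gene model of 268 bases and had 1 read under cisplatin and 60 untreated, too few for a fold.

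Some genes of long span went the other way, though how much of the span their expressed transcripts cover was not read. CREB5, a transcription factor gene of 527 kb, measured 13.1 and 10.9 RPKM under cisplatin and 1.9 and 1.55 RPKM untreated (2.25, SE 0.11). The phosphodiesterase gene PDE4D measured 8.49 and 8.1 RPKM under cisplatin and 4.11 and 3.46 RPKM untreated (0.96), and CDH18 rose by 0.69. The remaining risers over 500 kb were FIP1L1, PCDH9, PDE10A, EGLN3, NRG1, RUNX1, HDAC9, RASGEF1B and PDE4B, and 21 of the 128 genes were not called. Between 300 and 500 kb, BACH1, a repressor of antioxidant genes, measured 22.6 and 22.3 RPKM under cisplatin and 13.3 and 11.1 RPKM untreated (0.84), and the ubiquitin ligase gene NEDD4L rose by 0.79. NEDD9, a scaffold of focal adhesions that spans between 100 and 300 kb, measured 12.7 and 11.1 RPKM under cisplatin and 0.638 and 0.631 RPKM untreated (2.98).

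Families with long genes leaned downward. Of 12 receptor protein tyrosine phosphatase genes 7 fell (58.3%, beside 16.2% of all genes) and 3 rose (25%, beside 17.8%), with a median of -0.64. PTPRM (840 kb) and PTPRG (736 kb) fell most, at 1.11 and 1.13 against 19.1 and 17 RPKM and at 0.736 and 0.515 against 15.5 and 14.5 RPKM, and PTPRR, at 11.2 and 12.6 against 4.03 and 3.77 RPKM, rose by 1.40. Of 26 genes of mTOR and growth signalling 10 fell (38.5%), 2 of which reached 1 RPKM only in untreated cells. INSR, the insulin receptor gene, measured 1.23 and 1.02 RPKM under cisplatin and 4.21 and 3.89 RPKM untreated (-1.25), RPTOR, which encodes a scaffold of mTOR complex 1, fell by 1.67, and MTOR was not called (-0.09). Of 17 genes of cisplatin and copper transport 10 fell (58.8%) and 7 were not called, with a median of -0.56. Of these decreases 2 reached 1 RPKM only in untreated cells. The copper pumps ATP7A and ATP7B, which are known to export cisplatin, measured 2.99 and 3.23 against 7.38 and 5.61 RPKM (-0.86) and 3.87 and 3.38 against 7.9 and 7.67 RPKM (-0.93). The efflux transporter genes ABCC4 and ABCC1 fell by 1.04 and 0.60, and the copper importer gene SLC31A1, at 22.7 and 22.7 against 21.6 and 17.9 RPKM, was not called (0.20). With the replicate block 3 genes of this list were called higher, SLC31A1 among them (adjusted p = 0.0332).

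Many matrix genes fell as well, some of them under 100 kb. Of 27 collagen, laminin and fibronectin genes 13 fell (48.15%, beside 16.2% of all genes), with a median of -0.77, and 20 fell with the replicate block. COL1A2, a fibrillar collagen gene under 100 kb, measured 2.1 and 2.08 RPKM under cisplatin and 15.6 and 17 RPKM untreated (-2.49, SE 0.19), and the fibronectin gene FN1 22.3 and 19.2 against 41.1 and 39.1 RPKM (-0.92). The fibroblast markers LUM (8.95 and 8.9 against 13.5 and 11.5 RPKM, not called, or called with the replicate block at an adjusted p of 0.00771) and POSTN (0.686 and 0.641 against 1.47 and 1.47 RPKM) were also lower under cisplatin, and POSTN lost its call without any 1 of the 4 libraries; their part in the collagen result was not tested. The hemidesmosomal collagen gene COL17A1 rose by 1.01. Of 30 activin, TGF-beta and BMP signalling genes 7 rose (23.3%) and 8 fell (26.7%), with a median of 0.00. The growth factor genes that rose included TGFB2, which measured 22.9 and 17.8 RPKM under cisplatin and 4.55 and 4.04 RPKM untreated, BMP2, at 20.0 and 19.1 against 4.39 and 4.42 RPKM (1.93), and the activin gene INHBA, at 6.03 and 5.69 against 1.32 and 1.09 RPKM (1.64). Besides LTBP1, the ligand gene BMP6 fell by 1.30, the receptor genes BMPR1B and BMPR2 by 1.10 and 0.71, the inhibitory SMAD6 by 0.80 and LTBP2 by 0.71. The list had 4 decreases without untreated replicate 2 or cisplatin replicate 2, and 5 without cisplatin replicate 1. Of 22 genes of epithelial and mesenchymal state 5 rose (22.7%) and 3 fell (13.6%), with a median of 0.11. The transcription factor genes SNAI1, SNAI2 and ZEB2 rose by 1.75, 1.42 and 1.16, as did the epithelial genes KRT80 and TJP1 by 0.77 and 0.24. The epithelial adhesion gene EPCAM and the mesenchymal factor gene PRRX1 fell by 0.61 and 0.91, and CDH1, the E-cadherin gene, measured 0.343 and 0.226 against 1.15 and 1.30 RPKM (-0.80).

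Redox and lipid genes leaned downward: 33.3% of NRF2 and redox genes and 31.25% of cholesterol and fatty acid synthesis genes fell, beside 16.2% of all genes. Of 27 NRF2 and redox genes 9 fell, with a median of -0.23, and 5 fell without cisplatin replicate 2. ALDH3A1, an aldehyde dehydrogenase gene, measured 4.96 and 5.4 RPKM under cisplatin and 21.3 and 25.1 RPKM untreated (-1.97), AKR1C1 and AKR1C2, whose sequences are close enough that reads may be shared, fell by 0.88 and 1.13, and NQO1 fell by 0.28. HMOX1, heme oxygenase, went up at 12.3 and 13.4 against 6.86 and 8.53 RPKM (0.68, adjusted p = 0.00655), and lost its call without untreated replicate 1 or cisplatin replicate 2. Of 32 genes of cholesterol and fatty acid synthesis 10 fell, with a median of -0.30, among them the fatty acid enzyme genes ELOVL6 (-1.45) and SCD (-0.56) and the sterol sensor gene INSIG1 (-0.69). That count was 19 with the replicate block and 5 without untreated replicate 2 or cisplatin replicate 2. Of 49 cytosolic ribosomal protein genes 1 rose, RPS24, at 21 and 19.8 against 13.6 and 13.9 RPKM (0.54), with a list median of 0.01, and the replicate block called 6 higher. Of 29 genes of the nucleolus and RNA polymerase I 14 rose, POLR1E by 0.79 and RRN3 by 0.73 among them, and 9 rose without untreated replicate 2 or cisplatin replicate 1.

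**Figure D4:**
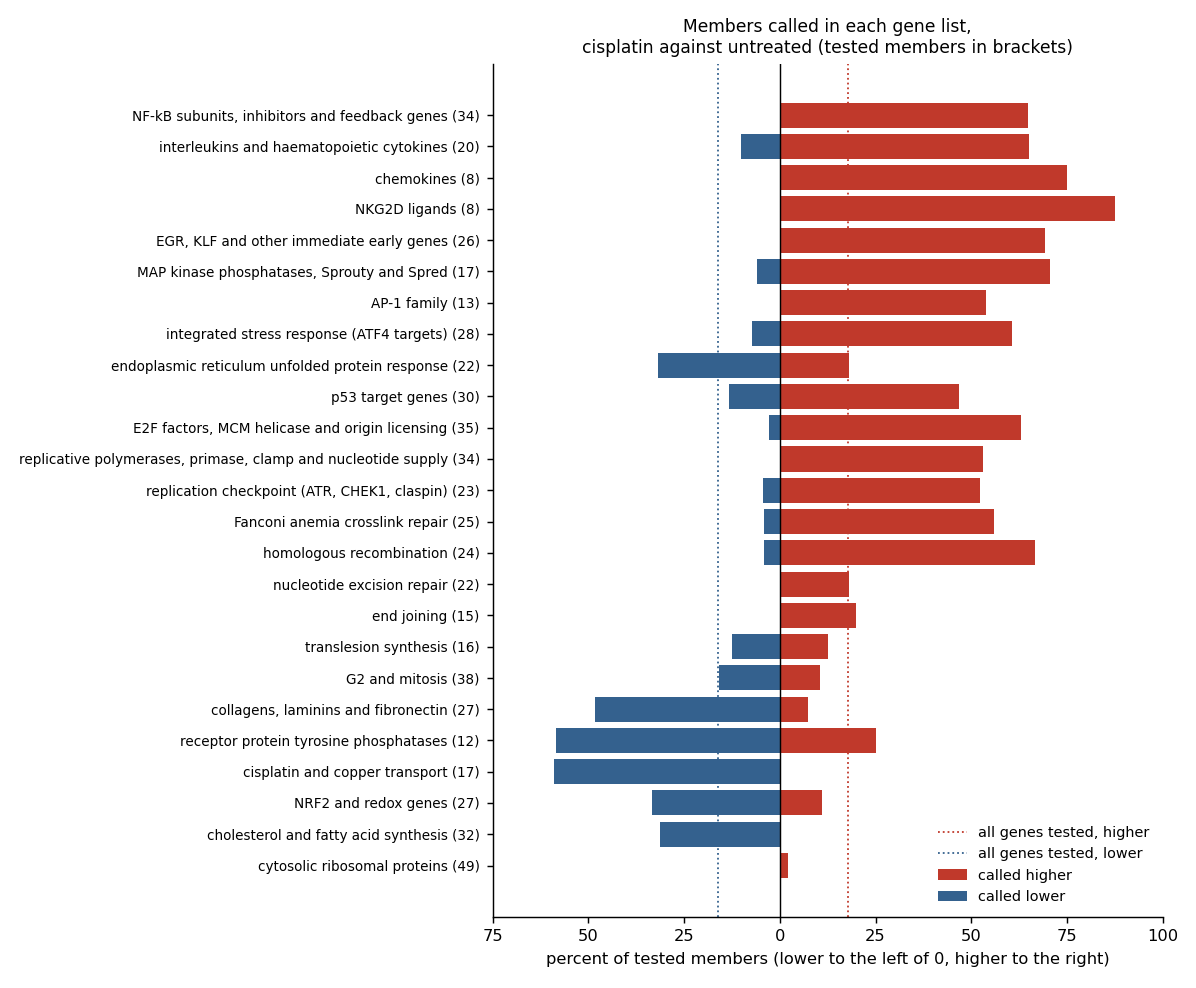
Percent of tested members of 25 gene lists called higher (red, to the right of 0) and lower (blue, to the left) under cisplatin, with the number tested in brackets and dotted lines at the shares over all genes tested, 17.8% higher and 16.2% lower. NKG2D ligands, chemokines and MAP kinase phosphatases lie far to the right and transporters, receptor phosphatases and collagens far to the left. The lists were chosen with earlier results of these data known.

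The chart of called members by list puts these groups side by side. The lists overlap in a few genes, SESN2 for example standing both with p53 targets and with the integrated stress response, and lists differ in expression level, which bears on how often a gene is called.

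The response of shScramble cells was set against that of the PRMT1 knockdown cells, taken as the mean of the 3 hairpins. Over all genes the difference of the responses was called for 870 (5.54%), above 0 for 559 and below 0 for 311, and with the replicate block for 1425 and 1065. Among 30 genes, those of largest change and a short list of markers, 19 differed. Most of the 30 were picked for the size of their change in shScramble cells, which by itself favours a larger response there, so the direction of their differences is a description. Among the 19 were 13 of 16 increases. HMOX1, from the short list, changed by 0.68 in shScramble cells and by -0.47 in shPRMT1 cells. IL1A changed by 3.81 in shScramble cells and by 1.00 in shPRMT1 cells, TNFRSF9 by 4.26 and 1.29, and TNFAIP3 by 4.61 and 2.31, with differences of 2.81 (SE 0.29, adjusted p = 0.000824), 2.97 (SE 0.12, adjusted p = 1.98e-06) and 2.29 (SE 0.15, adjusted p = 6.99e-05). CDKN1A (2.43 and 1.88, difference 0.56, SE 0.16) and CCNE1 (1.50 and 1.55, difference -0.06, SE 0.11) did not pass the test of the difference, nor did RAET1L (4.18 and 3.64, difference 0.55, SE 0.18). Without cisplatin replicate 1 of shScramble cells the counts over all genes were 137 and 63, without untreated replicate 2 156 and 86, without untreated replicate 1 328 and 122, and without cisplatin replicate 2 361 and 116.

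**Figure D5:**
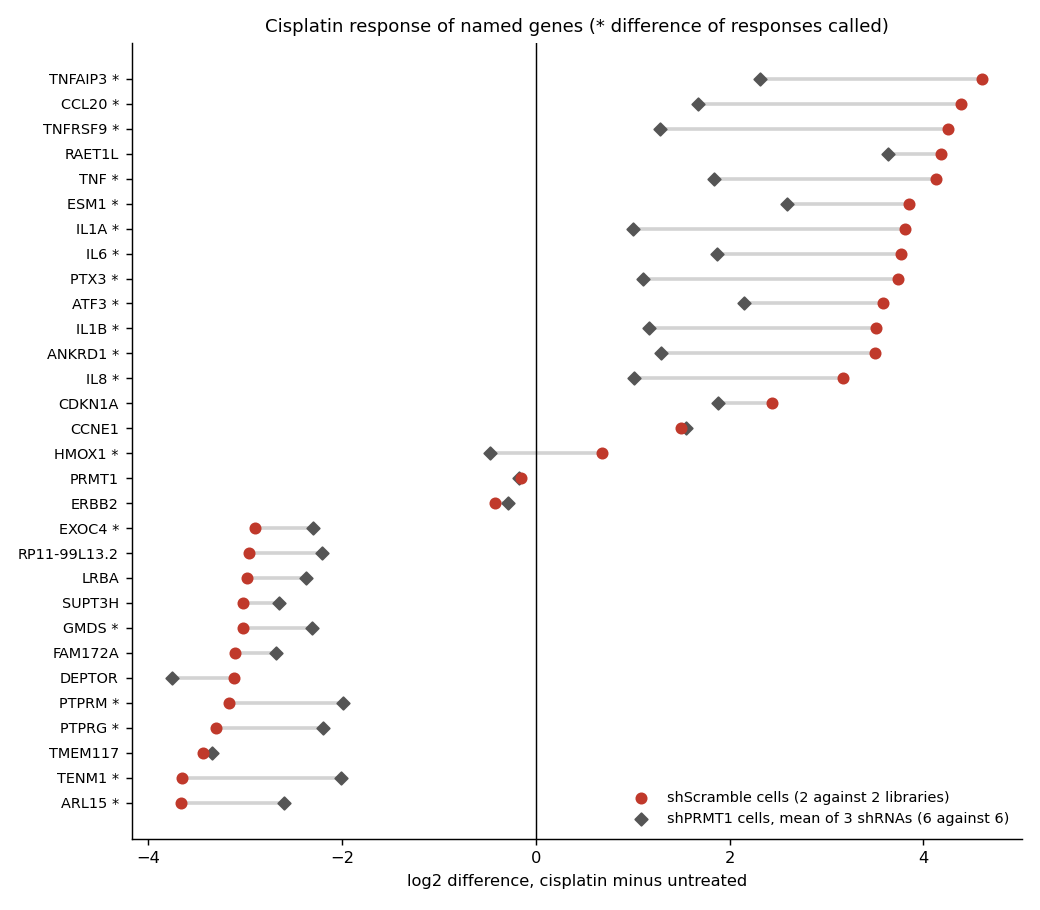
Cisplatin response (log2 difference, cisplatin minus untreated) of 30 named genes in shScramble cells (red circles, 2 against 2 libraries) and in shPRMT1 cells (grey diamonds, mean of 3 hairpins, 6 against 6), with an asterisk where the difference of the responses was called. Asterisks mark 19 genes, such as TNFRSF9 at 4.26 against 1.29 and TENM1 at -3.65 against -2.01, and most genes shown were picked for a large change in shScramble cells, which favours circles farther from 0.

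Of 13 decreases in that set, 6 differed, as the plot of both responses shows: TENM1 (-3.65 in shScramble cells and -2.01 in shPRMT1 cells), PTPRM (-3.17 and -1.99), PTPRG (-3.30 and -2.20), ARL15 (-3.66 and -2.60), GMDS (-3.03 and -2.31) and EXOC4 (-2.90 and -2.30). DEPTOR was not called different (-3.12 and -3.76, difference 0.64, SE 0.17, adjusted p = 0.0584). Medians over whole classes of span ran the other way: genes over 500 kb had a median response of -1.25 in shScramble cells and -1.40 in shPRMT1 cells, genes of 300 to 500 kb -0.98 and -1.23, and genes of 100 to 300 kb -0.17 and -0.36. In the class of 100 to 300 kb the difference was called above 0 for 202 genes and below 0 for 10, and in the class of 300 to 500 kb for 71 and 8.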

How the data were processed

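RNA from 16 SK-OV-3 cultures was sequenced, and the deposited table gives 57820 genes as RPKM, a unit the authors computed and in which all values were deposited. Per the labels' protocols, RNA was taken with RNeasy Plus Micro columns and libraries were made with TruSeq RNA v2, a kit that does not mark strand, so reads of overlapping or antisense genes cannot be told apart. HISAT2 and DESeq2, with no role or version, and the builds GRCh37 and mm9 appear in the submitters' processing notes; coordinates follow the table and are GRCh37. The sources used here do not give the annotation or the treatment of duplicate reads. Near-identical families (RAET1, AKR1C, HLA, histone and ribosomal protein genes) may share reads.

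All RPKM steps corresponded to whole reads (40649 of 40649 genes with a value above 0, or 100%, within 0.01 reads), and library totals were 12289308 to 16039770 reads. A gene with values above 0 in a single library or a few meets this whatever its values, so the share is no test for such genes. Genes with at least 1 RPKM in 2 of the 4 shScramble libraries were analysed as log2(RPKM + 1) with limma 3.58.1 (R 4.3.3, trended prior). The model held 8 group means over 16 libraries, without a replicate block, and calls were made at a Benjamini-Hochberg adjusted p under 0.05 over all genes tested. Tables were made with Python 3.11.15, pandas 2.3.3 and numpy 2.4.6. On data simulated for the comparison of cisplatin and untreated cells, over 15466 genes, 61.1% of 2-fold and 95.8% of 4-fold changes in reads were recovered. There were 6 false calls. The simulation held 200 changed genes, the same dispersion for every gene and no effect shared by a replicate number. It therefore does not give the recovery or the false calls of the real comparison.

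Replicate numbers may pair libraries: the difference of replicates 1 and 2 over genes correlated between every pair of groups (0.4 to 0.773 over 28 pairs, 0.467 for shScramble cisplatin and untreated). The main fit leaves this pairing out, and so do its standard errors, p-values and genes given as not called. The blocked fit, which called 4072 genes higher and 3725 lower beside 2789 and 2545, is an alternative. Others are a fit on the 4 libraries, another pseudocount, other filters, 2 scalings, voom on the recovered reads and leaving out each library.

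Members and gene lists were chosen with earlier results of these data known. Genes were named by rule: the 12 largest increases and decreases with a mean of at least 5 RPKM in the higher group; from each list up to 4 called members of lowest adjusted p and 2 of highest mean not called; 12 set genes; the extremes of each span class; and the 6 genes highest in untreated cells. Other list members named in the text were chosen after their values were seen. Some genes are not reported here. Promoter windows came from RefSeq (GRCh38.p14) and matched 10129 of 15631 tested entries by symbol; with repeated symbols left out, these were 10055 distinct genes.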

Additional observations from a re-analysis of the deposited data

Results flagged for a closer look

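The cisplatin response of 19 of the 30 genes of largest change or on the short list differed between shScramble cells and shPRMT1 cells by limma's test of the difference (adjusted p under 0.05). Most of the 30 were picked for a large change in shScramble cells, which by itself favours a larger response there. The differences below are the shScramble response minus the mean shPRMT1 response, on the log2(RPKM + 1) scale. For the receptor and cytokine genes they were 2.97 for TNFRSF9, 2.81 for IL1A, 2.71 for CCL20, 2.33 for IL1B, 2.29 for TNF, 2.16 for IL8 and 1.90 for IL6. For PTX3 the difference was 2.63, for the NF-kB inhibitor gene TNFAIP3 2.29, for ANKRD1 2.21, for ATF3 1.44 and for ESM1 1.26. HMOX1 differed by 1.15. Among genes that fell, the difference was -1.65 for TENM1, -1.18 for PTPRM, -1.10 for PTPRG, -1.06 for ARL15, -0.71 for GMDS and -0.60 for EXOC4. Each of these 6 genes spans over 300 kb. PRMT1 itself was not called different between cisplatin and untreated shScramble cells.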

How the results depend on the processing

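The counts of genes called higher and lower, 2789 and 2545, stayed within 1.5 times under most alternatives. The exceptions among decreases were 3928 in the 4 libraries with the replicate block 1541 with a filter of 5 RPKM, which tests fewer genes, and 1665 without cisplatin replicate 2. Leaving out 1 library gave 1891 to 2161 increases and 1665 to 2016 decreases. The counts of differing responses, 559 above 0 and 311 below 0, were less stable: 1425 and 1065 with the replicate block, 371 above 0 with quantile normalization, 192 below 0 with the filter of 5 RPKM, and 137 to 361 and 63 to 122 without 1 library. The cause was not tested. Of 315 named genes, 12 to 20 lost their call without a given library, and no called gene among them reversed direction in any alternative that was run, while some that were not called, such as IER3 and RECQL4, changed sign. With the replicate block 29 more were called and none was lost. Some list counts that it moved by over 1.5 times stand beside those lists, and others do not. Decreases went from 0 to 2 in nucleotide excision repair and from 1 to 3 in the HLA class I list. They went from 2 to 5 among YAP and TEAD genes and from 9 to 17 in the Wnt, Notch and Hedgehog list. Scaling moved the median of all genes by less than 0.1.

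Depth limits genes near 3 reads, and no gene had more than 1.83 reads per base of model in any of the 4 libraries. Of 103 genes over 1 read per base, 18 were called higher and 7 lower, TNFAIP3, IL8 and MMP1 among them; whether duplicate handling compressed abundant genes was not tested.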

Other observations

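Some non-coding and clock genes also changed. Of 25 host genes of small nucleolar RNAs and nuclear long non-coding RNAs, 12 rose (48%, beside 17.8% of all genes). LINC00973 measured 33.6 and 33.7 RPKM under cisplatin and 3.68 and 3.03 RPKM untreated (3.00), and the host genes SNHG15 and SNHG12 rose by 1.41 and 1.08, whereas MALAT1, at 42 and 39.8 against 44.1 and 49.8 RPKM, was not called. Of 16 circadian clock genes 7 rose (43.8%, beside 17.8% of all genes) and 3 fell (18.8%, beside 16.2%). Of the 3 decreases, 2 reached 1 RPKM only in untreated cells. The repressor genes NR1D1 (1.18), PER2 (1.05), CRY1 (0.80) and CRY2 (0.78) rose, and the output factors DBP and TEF fell by 0.94 and 0.70.

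Secreted and surface proteins outside the lists above changed as well. IL1RL1, the receptor of interleukin 33, measured 4.97 and 7.27 RPKM under cisplatin and 0.059 and 0 RPKM untreated, with 5 reads in all in untreated cells. The mucin gene MUC5AC measured 0.31 and 0.19 RPKM under cisplatin and 4.04 and 9.15 RPKM untreated (-2.52), and the leukotriene enzyme gene ALOX5 0.721 and 0.7 against 8.65 and 9.33 RPKM (-2.54). The collagenase gene MMP1 measured 102.2 and 99.97 RPKM under cisplatin and 119 and 121 RPKM untreated (-0.24), and lost its call without any 1 of the 4 libraries. Among YAP targets CTGF and CYR61 rose by 0.97 and 0.74 beside ANKRD1, and AXL and F3 were not called (0.10 and 0.24), though F3 was with the replicate block (adjusted p = 0.0167). Among protein arginine methyltransferases and their partners, BTG2 and BTG1 rose by 1.86 and 0.69, and CARM1 (-0.38, or an adjusted p of 0.0109 with the replicate block) and PRMT6 (-0.06) were not called. In the Wnt pathway the inhibitor gene DKK1 measured 63.4 and 68.9 RPKM under cisplatin and 28.8 and 32.4 RPKM untreated (1.09), and GLI1, a Hedgehog effector, 0.827 and 0.566 against 3.01 and 3.09 RPKM (-1.26).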
